A study of Mus musculus with 12 samples.

Results

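The HSP70 family of chaperones was taken as the rows of the expression table with the symbols *Hspa1a*, *Hspa1b*, *Hspa1l*, *Hspa2*, *Hspa4*, *Hspa4l*, *Hspa5*, *Hspa8*, *Hspa9* and *Hspa14*, which are 10 of the 21859 genes listed. HSP70 proteins bind short hydrophobic stretches of unfolded proteins and release them in a cycle of ATP hydrolysis that J-domain proteins start and nucleotide exchange factors reset. *Hspa1a* and *Hspa1b* are the classic heat-inducible genes, which heat shock factor HSF1 switches on through heat shock elements when cytosolic proteins unfold. *Hspa8* is the constitutive cytosolic chaperone, *Hspa5* (BiP) serves the endoplasmic reticulum (ER), *Hspa9* (mortalin) serves mitochondria, *Hspa14* works at the ribosome, and *Hspa4* belongs to the HSP110 branch, whose proteins exchange nucleotides on HSP70. In the testis, *Hspa2* is known for its role in meiotic spermatocytes, *Hspa1l* for expression in spermatids and *Hspa4l* for germ cell expression and male fertility. The germ cells of the scrotal testis live below body temperature, so the comparison with the abdominal testis asks which of these chaperone mRNAs differ in spermatogonia moved to the warmer site.

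Sorted GFRa1+/KIT- spermatogonia gave 12 Smart-seq2 RNA libraries, 5 from control and 7 from cryptorchid mouse testes. The labels give the genotype of both groups as WT, and the study's methods name GFRa1-EGFP reporter mice aged 8 to 10 weeks. EGFP there follows the gene of the GDNF receptor, a mark of undifferentiated spermatogonia, and KIT marks differentiating ones. In the cryptorchid group the left testis had been fixed to the abdominal wall 10 days earlier, and the control group was the right testis, which stayed in the scrotum. Tissue was digested over 9 min, at 32°C for control and at 37°C for cryptorchid samples, so the digestion temperature cannot be told apart from the condition. About 200 cells gave the RNA of a library. Surgery was unilateral, so a mouse could give both a control and a cryptorchid testis. The labels do not state which libraries share a mouse, so the tests were unpaired and leave out any such sharing. Their *P*-values measure the spread between libraries, which may be technical in part.

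Reads on genes ranged from 4511730 to 24345372 in control and from 3306771 to 20027904 in cryptorchid libraries. Replicates 1 to 3 of both groups had 74.5% to 94.0% of their reads on genes, and replicates 4 and above had 94.8% to 99.9%, so differences are also given within each of these sets. The libraries numbered 3 in both groups had the lowest levels of abundant genes, with a median log2 RPM (reads scaled to the total of the library, the unit of the table) of the 500 highest genes of 7.99 in control and 8.07 in cryptorchid, against 8.35 to 8.68 in the other 10. The 10 markers of undifferentiated spermatogonia summed to 1095 to 1569 RPM in control and to 1237 to 1917 RPM in cryptorchid libraries. Of the 10, 0 were called between the groups, against 3.56% of all genes called higher and 2.36% lower. An unadjusted *P*-value under 0.05 in limma was reached by 1 of 10, against 9.49% of all genes. Their log2 differences, cryptorchid minus control, were above 0 for 5 and below 0 for 5, from -0.97 (*Nanos3*, limma *P*-value 0.0349) to 0.91 (*Id4*, limma *P*-value 0.242). Markers of spermatids were also present in every library, as given with the germ-cell members.

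Across the family, 0 of 10 members were called higher and 1 of 10, *Hspa1l*, was called lower in cryptorchid spermatogonia, by limma (2-fold, two-sided *P*-value below 0.05 before adjustment). Over the 16932 genes tested, 3.56% were called higher and 2.36% were called lower. The members' shares therefore rest on 1 gene. After Benjamini-Hochberg adjustment over all genes, 0 members passed, as the adjusted *P*-values of the 10 lay between 0.489 and 0.989, and 0.0118% of all genes passed. By unadjusted *P*-value alone, 1 of 10 members was under 0.05, against 9.49% of all genes. The groups overlapped in all 10 members, and 0.839% of all genes had groups that did not overlap. The median log2 difference of the members, cryptorchid minus control, was -0.01, and that of all genes was 0.10. By class, the median was -0.99 for the 2 inducible members, -0.43 for the 3 germ-cell members and 0.30 for the 5 constitutive members. The sign was the same in replicates 1 to 3 and in replicates 4 and above for 8 of 10 members, with *Hspa4* and *Hspa14* as the exceptions. *Hspa4l*, among the 8, was below 0 in both sets and at 0.03 over the 12 libraries.

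**Figure D1:**
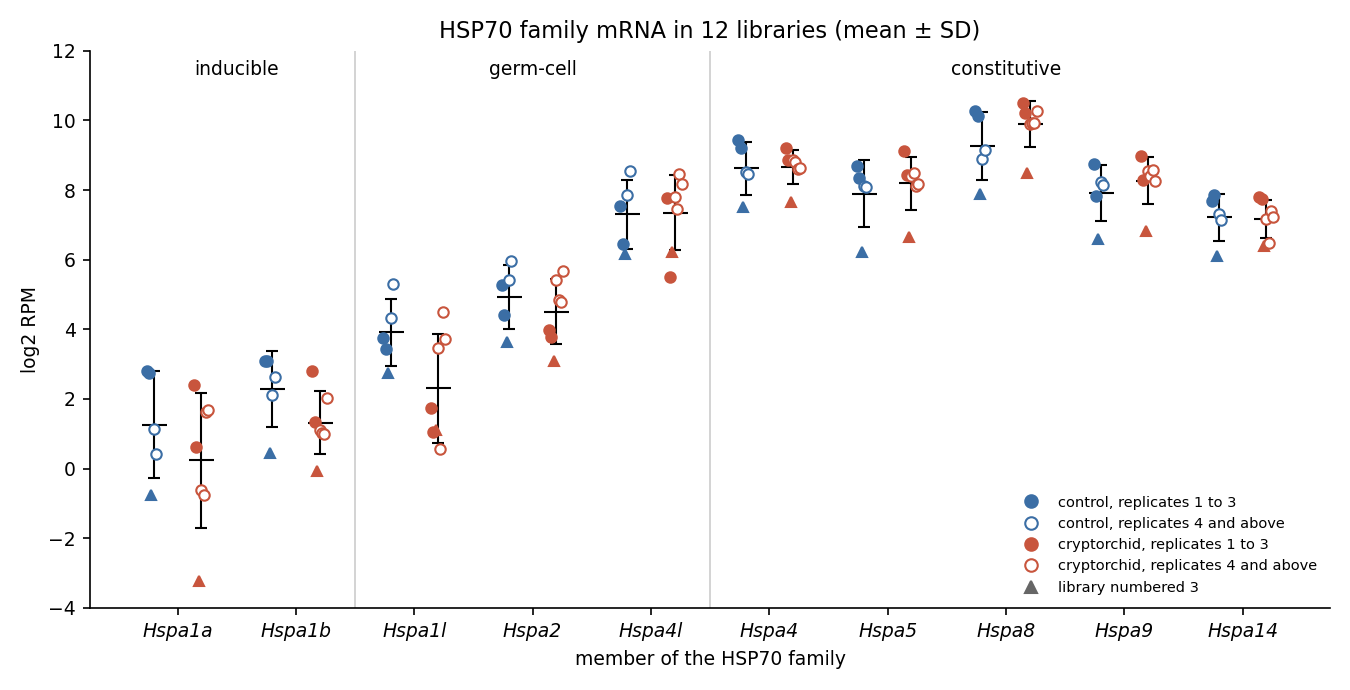
Log2 RPM of the 10 HSP70 genes in each of 5 control and 7 cryptorchid libraries, with filled symbols for replicates 1 to 3, open symbols for replicates 4 and above, triangles for the libraries numbered 3, and bars for the mean ± SD. The groups overlap in every gene, and the library numbered 3 is the lowest control library in all 10 genes.

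Levels were compared between members per kilobase of exon. *Hspa8* was the highest member in all 12 libraries, with a median of 132 RPM per kb in control and 227 RPM per kb in cryptorchid spermatogonia. *Hspa4*, *Hspa5* and *Hspa9* followed, at control medians of 66.4, 65.2 and 66.2 RPM per kb, and their order was not fixed. The mean log2 gap per kb between *Hspa4* and *Hspa5* was 0.35 ± 0.38 (SD, n = 5), and that between *Hspa5* and *Hspa9* was 0.01 ± 0.31 (SD, n = 5), so these neighbours did not differ beyond their spread. *Hspa14* came next at 38.8 RPM per kb, then *Hspa4l* at 15.9 and *Hspa2* at 14.6 RPM per kb. *Hspa1l* had 5.45, *Hspa1b* 2.21 and *Hspa1a* 0.736 RPM per kb in control libraries, and they filled the same last 3 places in the cryptorchid group at 1.34, 0.770 and 0.513 RPM per kb. The inducible genes were thus the least abundant members in both groups by the mean over libraries. With the length of the longest coding transcript in place of all exons, *Hspa14* moved up to place 3 in control and *Hspa8* and the last 3 kept their places.

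The inducible genes *Hspa1a* and *Hspa1b* had lower mean log2 RPM in cryptorchid spermatogonia, and in the unpaired comparison neither difference was beyond the spread between libraries. Both are single-exon genes on chromosome 17 of GRCm38, *Hspa1a* at chr17:34969190-34972156 and *Hspa1b* at chr17:34956436-34959238, both on the minus strand. Of the 150-base windows of *Hspa1a*, 38.1% also occur in *Hspa1b*, so reads could be split or lost between the copies and the sum is given with each gene. Their promoters are shown because heat shock elements there are how HSF1 reaches the genes. The 250 bases before each start, from RefSeq on GRCm38.p6, are at chr17:34972157-34972406 (minus strand) for *Hspa1a* and chr17:34959239-34959488 (minus strand) for *Hspa1b*, with a pair of heat shock units facing each other (GAANNTTC) in capitals.
Hspa1a: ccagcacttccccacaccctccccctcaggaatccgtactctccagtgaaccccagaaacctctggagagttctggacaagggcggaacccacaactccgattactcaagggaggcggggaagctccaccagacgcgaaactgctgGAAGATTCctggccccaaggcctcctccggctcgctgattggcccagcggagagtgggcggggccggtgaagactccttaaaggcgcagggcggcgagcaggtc
Hspa1b: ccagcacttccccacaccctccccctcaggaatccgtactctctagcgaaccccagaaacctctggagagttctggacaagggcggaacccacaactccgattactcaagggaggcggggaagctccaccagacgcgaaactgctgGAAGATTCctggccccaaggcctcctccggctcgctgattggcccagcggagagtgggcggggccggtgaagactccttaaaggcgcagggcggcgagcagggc
The sequences differ at 3 of 250 positions, and the pair lies from -104 to -97 before the start in both. Within 250 bases, GAANNTTC is found in 6.69% of 32851 promoters and the pair facing away (TTCNNGAA) in 7.17%. Neither *Hspa1a* nor *Hspa1b* held the latter, or the run of 3 units (GAANNTTCNNGAA or its reverse complement, in 0.466% of promoters). The letters are a description of this window and not a measured binding site.

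In control replicates 1 to 5, *Hspa1a* was at 2.79, 2.73, -0.77, 1.13 and 0.41 log2 RPM, and the 7 cryptorchid libraries ranged from -3.22 over a median of 0.61 to 2.39. The lowest cryptorchid library held 0 reads of *Hspa1a*, which allows up to 0.357 RPM, and the other 11 libraries held 2 to 191 reads. The log2 difference was -1.02 ± 0.99 (SE), with a limma *P*-value of 0.316 (adjusted 0.778) and a 95% interval of -3.09 to 1.06. It was -1.66 in replicates 1 to 3 and -0.29 in replicates 4 and above, and -0.44 without cryptorchid replicate 3, the library with 0 reads. *Hspa1b* was at 3.09, 3.08, 0.46, 2.13 and 2.63 log2 RPM in control, and at -0.07, 1.11 and 2.81 for the lowest, median and highest cryptorchid library. Of the 7 cryptorchid libraries, 1 was above the control median. The log2 difference of *Hspa1b* was -0.96 ± 0.67 (SE), with a limma *P*-value of 0.168 (adjusted 0.684), an interval of -2.37 to 0.45 and an exact two-sided rank sum *P*-value of 0.149.

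Summed over both copies, the control libraries held 377, 434, 20, 36 and 34 reads, and the cryptorchid libraries held 273, 45, 8, 13, 9, 23 and 34 reads. Replicates 1 and 2 of control and 1 of cryptorchid stood above the rest. These libraries were also the deepest, with 20027904 to 24345372 reads on genes against at most 9130421 in the others. In log2 RPM their sums were 3.95, 3.92 and 3.61, and the next highest library was at 2.91. The summed level was 2.89 ± 1.21 log2 RPM in control (SD, n = 5) against 1.97 ± 1.14 in cryptorchid libraries (SD, n = 7), with an exact two-sided rank sum *P*-value of 0.202. The log2 difference of the sum was -1.04 in replicates 1 to 3 and -0.79 in replicates 4 and above. Without control replicate 3 it was -1.40 (exact two-sided rank sum *P*-value 0.0424), and without the same library *Hspa1b* was called lower (log2 difference -1.42, limma *P*-value 0.0447, adjusted 0.381). Exons of *Hspa1a* overlap those of Gm20481 on the other strand, and Smart-seq2 cDNA made into libraries with Nextera XT keeps no strand, so reads of the pair cannot be told apart. Without both libraries numbered 3, *Hspa1b* differed by -1.19 (limma *P*-value 0.0632), *Hspa8* by 0.52 (0.0855) and *Hspa1l* by -1.70 (0.0429).

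Among the 5 constitutive members, 0 were called in either direction, 4 of 5 log2 differences were above 0, and their range was -0.05 to 0.63. *Hspa8* had the largest of them. In control replicates 1 to 5 it was at 10.26, 10.13, 7.88, 8.90 and 9.15 log2 RPM, and in cryptorchid libraries the lowest, median and highest values were 8.48, 9.93 and 10.50. Of the 7 cryptorchid libraries, 6 lay above the control median and 2 above every control library. The log2 difference was 0.63 ± 0.43 (SE), with an interval of -0.29 to 1.54 and a limma *P*-value of 0.167 (adjusted 0.682). It was 0.31 in replicates 1 to 3 and 0.98 in replicates 4 and above, where the 4 cryptorchid libraries (9.89 to 10.28) lay above the 2 control libraries. Within the latter set limma gave a *P*-value of 0.00024 (adjusted 0.0595). In that fit 2934 of 16932 genes had an unadjusted *P*-value under 0.05, against 1606 in the main fit, and 0 passed adjustment. Without control replicate 3 the difference over the remaining 11 libraries was 0.28 (limma *P*-value 0.482). Exons of *Hspa8* contain 3 snoRNA genes on the same strand.

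*Hspa5*, the ER chaperone, was at 8.70, 8.33, 6.22, 8.11 and 8.09 log2 RPM in control libraries and at 6.65, 8.41 and 9.11 for the lowest, median and highest cryptorchid library. The groups overlapped over nearly their whole range. Its log2 difference was 0.30 ± 0.42 (SE, limma *P*-value 0.487, interval -0.59 to 1.19), and it was -0.12 without control replicate 3. The promoter of *Hspa5* is shown because it holds an ER stress response element (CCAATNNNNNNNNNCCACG), the kind of site at which ATF6 acts with NF-Y. The 250 bases before the start, at chr2:34771840-34772089 on the plus strand (RefSeq, GRCm38.p6), have the element in capitals.
Hspa5: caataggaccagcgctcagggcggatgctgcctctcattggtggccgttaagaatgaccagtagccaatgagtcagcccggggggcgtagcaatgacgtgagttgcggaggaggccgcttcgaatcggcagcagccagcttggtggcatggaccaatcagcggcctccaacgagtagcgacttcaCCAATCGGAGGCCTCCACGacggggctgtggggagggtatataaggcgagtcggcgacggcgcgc
The match lies from -65 to -47, and 0.113% of the 32851 promoters hold 1 on either strand. The other 7 members with a promoter entry had none, and only *Hspa1a* and *Hspa1b* of these 8 held a heat shock pair of either arrangement. *Hspa8* and *Hspa9* had no entry.

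The mitochondrial *Hspa9* had mean levels of 7.91 ± 0.81 log2 RPM in control (SD, n = 5) and 8.27 ± 0.68 in cryptorchid libraries (SD, n = 7), a difference of 0.35 ± 0.38 (SE, limma *P*-value 0.367) that was 0.02 without control replicate 3. The HSP110-branch gene *Hspa4* was at 8.63 ± 0.76 (SD, n = 5) and 8.66 ± 0.48 log2 RPM (SD, n = 7), and its 95% interval ran from -0.69 to 0.76. *Hspa14*, of the ribosome-associated complex, was at 7.22 ± 0.68 (SD, n = 5) and 7.17 ± 0.56 log2 RPM (SD, n = 7), with an interval of -0.74 to 0.65. The last 2 intervals leave out a 2-fold change in either direction. The exons of *Hspa14* overlap those of Gm45902 on the same strand, so reads of the pair may be mixed.

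**Figure D2:**
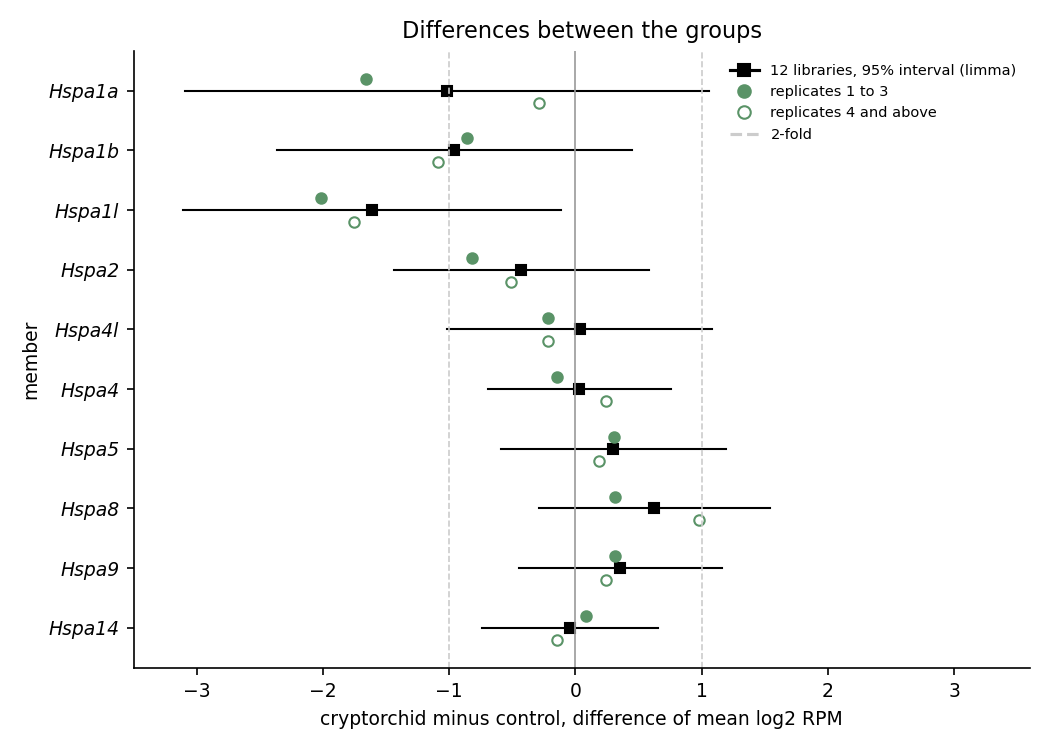
Cryptorchid minus control difference of mean log2 RPM for the 10 members (squares, with the 95% interval from limma over 12 libraries), and the same difference in replicates 1 to 3 (filled circles) and in replicates 4 and above (open circles). The interval of *Hspa1l* (-3.11 to -0.11) leaves out 0 and those of the other 9 include it, and *Hspa8* differs by 0.31 in one set of replicates and by 0.98 in the other.

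*Hspa1l*, the spermatid member of the family, was the 1 gene of the 10 called lower in cryptorchid spermatogonia. It lies next to *Hspa1a* and is read away from it, at chr17:34972703-34979285 on the plus strand. Its control values were 3.75, 3.44, 2.74, 4.34 and 5.30 log2 RPM, and its cryptorchid values were 1.73, 1.04, 1.10, 3.46, 0.55, 4.50 and 3.73. Cryptorchid replicates 1, 2, 3 and 5 lay below every control library, and replicates 4, 6 and 7 lay within the control range. The log2 difference was -1.61 ± 0.71 (SE), with a limma *P*-value of 0.0365 (adjusted 0.489). The exact two-sided rank sum *P*-value was 0.149 over all assignments and 0.0300 with assignments kept within the sets of replicates. The difference was -2.02 in replicates 1 to 3 and -1.76 in replicates 4 and above, where it was not called (limma *P*-value 0.104). Reads behind these values numbered 68 to 328 in control and 5 to 103 in cryptorchid libraries. Leaving out control replicate 1, 4 or 5 or cryptorchid replicate 1, 2, 3 or 5 took the limma *P*-value over 0.05, with differences of -1.65, -1.50, -1.26, -1.52, -1.40, -1.41 and -1.32. The exons of *Hspa1l* overlap 1778 bases of Gm10501, an antisense RNA, whose reads cannot be told apart from its own for the same reason. The promoter is shown beside that of *Hspa1a*, since it is the neighbour read the other way, at chr17:34972453-34972702 (plus strand, RefSeq, GRCm38.p6), and none of the searched letters were found in it.
Hspa1l: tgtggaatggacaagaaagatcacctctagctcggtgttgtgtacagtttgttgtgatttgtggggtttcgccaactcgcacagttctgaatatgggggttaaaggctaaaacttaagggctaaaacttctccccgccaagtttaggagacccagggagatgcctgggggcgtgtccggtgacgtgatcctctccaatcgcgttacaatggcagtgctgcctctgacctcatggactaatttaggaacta

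Spermatid markers moved with *Hspa1l*. All 11 markers of spermatids had a log2 difference below 0, with a median of -2.20, and 4 of 11 (*Prm1*, *Prm2*, *Odf1* and *Spata18*) were called lower. Their summed level was 1381, 549, 872, 2592 and 3076 RPM in control replicates 1 to 5, and 125, 18.7, 347, 789, 133, 2087 and 706 RPM in cryptorchid replicates 1 to 7. The 4 cryptorchid libraries with *Hspa1l* below every control library were those with the 4 lowest sums, and cryptorchid replicate 6 had the highest cryptorchid value of both. The part of spermatid RNA in the *Hspa1l* difference was not tested, and fewer cells of a type cannot be told apart from less RNA per cell in such sorted pools.

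**Figure D3:**
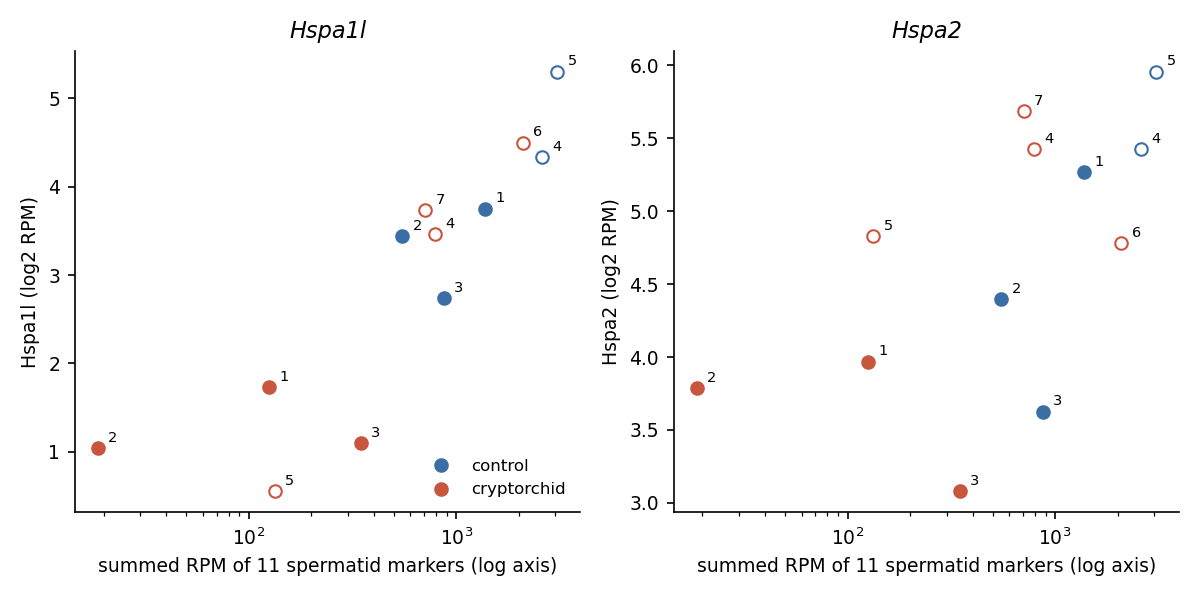
Log2 RPM of *Hspa1l* (left) and *Hspa2* (right) against the summed RPM of 11 spermatid markers on a log axis, with 1 point for each of 12 libraries, numbered by replicate, filled for replicates 1 to 3 and open for replicates 4 and above. The 4 libraries with the lowest marker sums (18.7 to 347 RPM, all cryptorchid) hold the 4 lowest *Hspa1l* values, 0.55 to 1.73. Their *Hspa2* values are 3.97, 3.79, 3.08 (the lowest of all libraries) and 4.83 in cryptorchid replicates 1, 2, 3 and 5. The other libraries span 3.63 to 5.95 in *Hspa2*, so the values overlap, and a link of *Hspa2* to the markers was not tested.

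*Hspa2* was at 5.27, 4.40, 3.63, 5.42 and 5.95 log2 RPM in control replicates 1 to 5, and at 3.08, 4.78 and 5.68 for the lowest, median and highest cryptorchid library. The groups overlapped, with 1 cryptorchid library below every control library. Its log2 difference was -0.43 ± 0.48 (SE, limma *P*-value 0.385, interval -1.44 to 0.58). It was -0.82 in replicates 1 to 3 and -0.51 in replicates 4 and above. The 13 markers of spermatocytes, the cells in which *Hspa2* is best known, summed to 699 to 2124 RPM in control and to 671 to 2329 RPM in cryptorchid libraries. Their median difference was 0.23, and 1 of 13 (*Mybl1*) was called higher. The log2 differences were above 0 for 8 of the 13 and below 0 for 5, from -1.61 (*Pgk2*, limma *P*-value 0.134) to 1.255 (*Mybl1*). *Hspa4l* was at 7.31 ± 0.99 log2 RPM in control (SD, n = 5) and 7.34 ± 1.08 in cryptorchid libraries (SD, n = 7), with an interval of -1.02 to 1.08. Its log2 difference was -0.22 in replicates 1 to 3 and -0.22 in replicates 4 and above.

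Within a library, the balance between members can be read without the scaling between libraries. Of the family's summed RPM per kb, the 2 inducible members made up 0.433% to 0.909% in control and 0.180% to 0.550% in cryptorchid libraries. The 3 germ-cell members made up 3.43% to 16.4% and 1.71% to 9.14%, and the 5 constitutive members 83.0% to 95.7% and 90.5% to 98.0%. *Hspa8* alone made up 27.8% to 45.0% in control and 40.2% to 49.1% in cryptorchid libraries. These ranges overlap in each class. The log2 ratio of *Hspa8* to the sum of *Hspa1a* and *Hspa1b* was 6.30, 6.21, 6.91, 6.18 and 6.24 in control replicates 1 to 5, and 6.89, 8.20, 8.40, 8.40, 8.52, 7.59 and 7.41 in cryptorchid replicates 1 to 7. Cryptorchid replicate 1 was just below control replicate 3, and the other 6 cryptorchid libraries were above every control library. The SD of this ratio in control libraries was 0.31, against 0.97 for *Hspa8* and 1.21 for the inducible sum taken singly. The log2 ratio of *Hspa8* to *Hspa1l* was 3.85 to 6.69 in control and 5.43 to 9.37 in cryptorchid libraries. Both ratios were formed after the values had been seen, and they are given without a test.

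**Figure D4:**
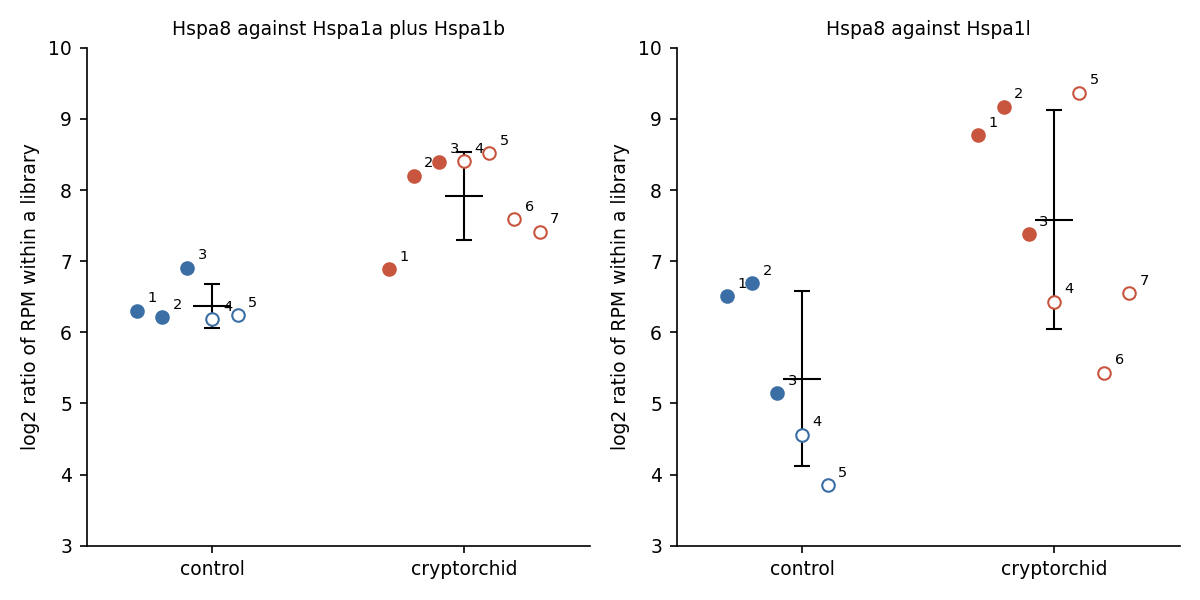
Log2 ratio of *Hspa8* RPM to the summed RPM of *Hspa1a* and *Hspa1b* (left) and to *Hspa1l* (right) in each library, numbered by replicate and filled for replicates 1 to 3, with bars for the mean ± SD of 5 control and 7 cryptorchid libraries. On the left the control libraries span 6.18 to 6.91 and the cryptorchid libraries 6.89 to 8.52, and on the right the groups overlap between 5.43 and 6.69.

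Genes that work with HSP70, or that are induced with it under stress, were followed as 9 lists of 73 genes in all. Of the 73, 2 (2.74%) were called higher and 3 (4.11%) were called lower, and the median log2 difference was 0.09. Over all genes tested, 3.56% were called higher and 2.36% lower, the median was 0.10, and 0.839% had groups that did not overlap. Among 10 cytosolic exchange factors and adaptors, *Hsph1*, the HSP110 exchange factor induced by heat, was called higher. It was at 6.62, 6.26, 6.29, 6.28 and 6.02 log2 RPM in control libraries and at 6.89, 7.57 and 8.08 for the lowest, median and highest cryptorchid library. The groups did not overlap. The log2 difference of *Hsph1* was 1.20 ± 0.25 (SE, limma *P*-value 0.000126, adjusted 0.129), and the exact two-sided rank sum *P*-value of 0.00253 is the smallest that 5 against 7 libraries can give. *Hsph1* differed by 0.86 in replicates 1 to 3, where it was not called (limma *P*-value 0.0794), and by 1.53 in replicates 4 and above. *Bag3*, an HSP70 adaptor for selective autophagy that HSF1 also induces, differed by 0.32 (limma *P*-value 0.451).

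Among 10 heat shock genes outside the family, which include *Hsp90aa1*, *Hspb1* and *Hspd1*, 1 was called higher, and the median difference was 0.23. It was *Chordc1*, which encodes an HSP90 co-chaperone, at 4.63 to 5.33 log2 RPM in control and 5.48 to 6.996 in cryptorchid libraries. The groups did not overlap. Its log2 difference was 1.39 ± 0.30 (SE, limma *P*-value 0.000223, adjusted 0.129). *Chordc1* differed by 0.81 in replicates 1 to 3, where it was not called (limma *P*-value 0.112), and by 1.86 in replicates 4 and above. The 10 cytosolic J-domain partners had 0 calls and a median difference of 0.28, with *Dnaja1* at 0.53 (limma *P*-value 0.160) and *Dnajb1*, the main heat-inducible J-domain partner, at 0.27 (limma *P*-value 0.269). Of the 10 immediate early genes, which rise when tissue is handled or digested, 0 were called and 0 had an unadjusted *P*-value under 0.05 in limma. Their log2 differences ranged from -0.37 to 2.16, with 6 above 0 and 4 below. The median was 0.34, against 0.10 over all genes, and it was 0.84 in replicates 1 to 3 and 0.51 in replicates 4 and above.

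The 4 germ-cell J-domain genes all had log2 differences below 0, with a median of -0.98. *Dnajb8* was called lower, from 5.60 ± 0.72 log2 RPM in control (SD, n = 5) to 2.77 ± 0.86 in cryptorchid libraries (SD, n = 7). The groups did not overlap, and the difference was -2.83 ± 0.47 (SE, limma *P*-value 1.05e-05, adjusted 0.0590). *Dnajb3* was called lower, with a log2 difference of -1.25 and overlapping groups (limma *P*-value 0.0264, adjusted 0.463, exact two-sided rank sum *P*-value 0.106). The *Dnajb3* call was lost in replicates 4 and above (-1.38, limma *P*-value 0.0804) and without control replicate 4 or 5 or cryptorchid replicate 1, 2 or 5 (-1.14 to -1.01, limma *P*-values 0.0519 to 0.0832). Both calls stand beside the lower spermatid markers given above, whose part in these differences was likewise not tested.

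Of 13 ER stress genes, *Herpud1*, a component of ER-associated degradation, was called lower, with a log2 difference of -1.53 ± 0.41 (SE, limma *P*-value 0.00157, adjusted 0.223, exact two-sided rank sum *P*-value 0.0177). Cryptorchid values of 2.71 to 4.43 log2 RPM overlapped control values of 4.01 to 6.21, and 4 of 7 were below every control library. *Herpud1* was not called in replicates 1 to 3 (-1.32, limma *P*-value 0.0655) and differed by -1.99 in replicates 4 and above. *Hsp90b1*, the HSP90 of the ER, differed by 0.47 (limma *P*-value 0.127, exact two-sided rank sum *P*-value 0.0480). The 8 ER partners of *Hspa5* had 0 calls and a median of -0.05. Their log2 differences ran from -0.21 to 0.90, with 3 above 0 and 5 below. *Hyou1*, the exchange factor of *Hspa5*, was at -0.21 and its J-domain partner *Dnajb11* at -0.08. Of the 8, 2 had an unadjusted *P*-value under 0.05 in limma, against 9.49% of all genes. The 5 mitochondrial partners of *Hspa9* had 0 calls and 0 unadjusted *P*-values under 0.05 in limma, with a median of -0.04 and its exchange factor *Grpel1* at -0.03. The 3 other genes with an HSP70 fold had 0 calls and a median of 0.44.

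**Figure D5:**
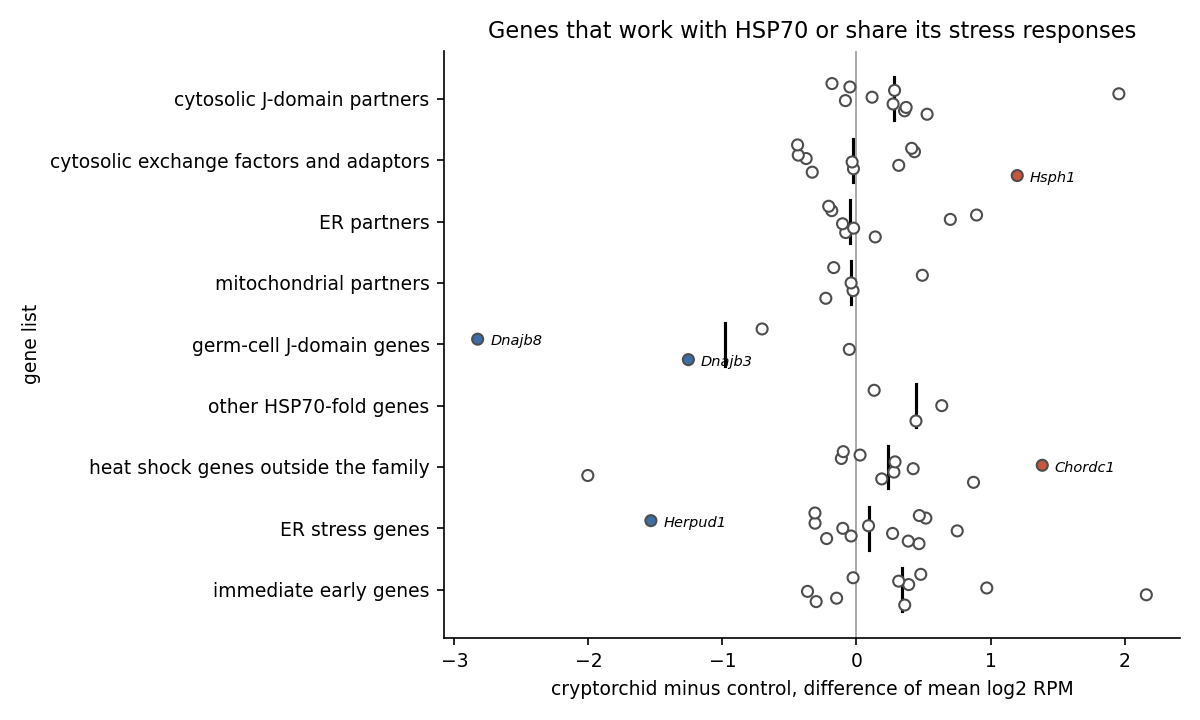
Cryptorchid minus control difference of mean log2 RPM for 73 genes in 9 lists, with 1 point a gene, filled and named where it was called by limma (2-fold, *P*-value below 0.05 before adjustment), and a vertical bar for each list's median. The 2 genes called higher (*Hsph1*, *Chordc1*) lie at 1.20 and 1.39 and the 3 called lower (*Dnajb8*, *Herpud1*, *Dnajb3*) at -2.83 to -1.25, while the germ-cell J-domain genes have the lowest list median, -0.98.

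The genes whose pattern over the 12 libraries was nearest to a member were found among 16782 others by the root mean square difference of log2 RPM, each gene centred on its own mean. For *Hspa5*, which itself varied by 0.785 around its mean, they were *Ubac1* (0.177), *Mrps30* (0.218) and *Ssr1* (0.226). For *Hspa2*, which varied by 0.875, they were *Psma6* (0.306), *Psmd8* (0.313) and *Cep63* (0.330). For *Hspa1b*, which varied by 1.01, they were *Prmt6* (0.418), *Utf1* (0.422) and *Doc2a* (0.459). Libraries held 7 to 243 reads of *Hspa1b*, against 71 to 939 of *Hspa2* and 763 to 12337 of *Hspa5*. The part of counting error in the larger distances of *Hspa1b* was not tested. The points share libraries and their depth, and the likeness is a description.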

How the data were processed

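RNA-seq of 5 control and 7 cryptorchid libraries was analysed. The deposited values are log2 RPM, which the authors made by trimming with Trim Galore 0.6.6, mapping to mm10 with HISAT2 2.1.0 and counting reads over protein-coding genes in SeqMonk. Reads were recovered from the RPM steps, and 100% of values under 1000 reads came out whole (tolerance 0.02 reads). They give depth and floors of 3 reads, which cover counting error only. In the table, a gene without reads has the value of 0.9 reads. Replicates differed by more than sampling noise (chi-square per degree of freedom 12.8 to 253 over 31 pairs).

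The 16932 genes whose mean RPM had a log2 above -1 entered 1 fit in limma 3.58.1 (lmFit, eBayes with trend, R 4.3.3), without a pseudocount. Single genes were also tested by exact two-sided rank sum enumeration over 792 assignments (Python 3.11.15). No count model was the main test, as the file holds log2 values. The scripts were tested on simulated data. Gene positions are from GENCODE vM21 (GRCm38, the build of mm10). RefSeq promoters on GRCm38.p6 matched 8 of 10 members, and 250 bases before each start were searched on both strands.

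The members, the classes, the 9 partner lists and the 10 cell type marker lists were chosen with earlier results of these data known. Genes named are all members, every partner gene called, 8 partners named whether called or not (*Hsph1*, *Bag3*, *Dnajb1*, *Dnaja1*, *Hyou1*, *Dnajb11*, *Hsp90b1*, *Grpel1*), and the 3 nearest patterns to each of *Hspa1b*, *Hspa2* and *Hspa5*. Alternatives were other normalizations, pseudocounts, filters, library weights, voom on the recovered reads, a replicate block, a term for the 2 sets of replicates, each set alone, and each library left out.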

Additional observations from a re-analysis of the deposited data

Results flagged for a closer look

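Of the 22 groups of libraries examined (11 levels in each of control and cryptorchid), 5 had a lowest library set far from the others by Dixon's criterion, and chance gives about 1 in 20. All 5 were the library numbered 3 of its group, and in all 5 the gene is a constitutive member. *Hspa5* was at 6.22 log2 RPM in control replicate 3, with the next control library at 8.09, and at 6.65 in cryptorchid replicate 3, with the next at 8.11. In cryptorchid replicate 3, *Hspa8* was at 8.48 (next library 9.89), *Hspa9* at 6.83 (next library 8.25) and *Hspa4* at 7.66 (next library 8.59). The same 2 libraries had the lowest levels of the 500 highest genes, and the part of this in the 5 values was not tested.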

How the results depend on the processing

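The members called higher stayed at 0 in every alternative run. The members called lower were 2 with the replicate block, 0 in replicates 4 and above and 0 to 2 with 1 library left out. The class medians kept their direction in the planned settings other than leaving out libraries, and with 1 library left out they were -1.47 to -0.59 (inducible), -0.12 to 0.56 (constitutive, below 0 without control replicate 3) and -0.75 to -0.17 (germ-cell). The inducible sum differed by -1.40 to -0.61. *Hspa1a* was not tested under the filter above 2. *Hspa8* had a limma *P*-value of 0.0249 with array weights (0.73, adjusted 0.182). In that fit 3391 of 16932 genes had an unadjusted limma *P*-value under 0.05, against 1606 in the main fit.

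Genes called higher and lower numbered 603 and 399. The count called higher was 385 under the filter above 2, 287 in replicates 1 to 3, and 501 to 750 with 1 library left out. The count called lower was 703 with array weights, 635 with a term for the sets of replicates, 705 in replicates 4 and above, and 280 to 572 with 1 library left out. Of the calls, 60.2% were higher, and 45.8% after quantile normalization (457 higher, 542 lower). Voom on the recovered reads called 774 and 539. Partner genes called higher numbered 4 with array weights, with the term and in replicates 4 and above, 5 with the replicate block, 0 in replicates 1 to 3 and 2 to 4 with 1 library left out. Partner genes called lower numbered 5 with the term and 2 to 4 with 1 library left out.

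Differences near 0 changed sign. *Hspa4* was -0.035 after median centring, -0.15 in replicates 1 to 3, -0.079 without both libraries numbered 3 and -0.25 to 0.24 with 1 library left out. *Hspa4l* was -0.033 after median centring, -0.0019 after quantile normalization, -0.062 with array weights, -0.36 with the replicate block, -0.22 with the term and in each set of replicates, -0.071 without both libraries numbered 3 and -0.26 to 0.34 with 1 library left out. *Hspa14* was 0.087 in replicates 1 to 3 and -0.32 to 0.11 with 1 library left out. *Hspa5* ranged from -0.12 to 0.56, *Bag3* from -0.068 to 0.48, *Dnajb11* from -0.38 to 0.17 and *Grpel1* from -0.27 to 0.22 with 1 library left out. *Hspa8* (0.28 to 0.87) and *Hspa9* (0.02 to 0.59) stayed above 0 with 1 library left out. In replicates 4 and above *Dnajb11* was 0.17 and *Grpel1* 0.0015. The cause was not tested.

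The replicate numbers do not mark shared mice in the labels. Deviations of same-numbered libraries correlated at 0.0488 to 0.411, over 0.1 in 4 of 5 pairs. Of the control libraries, 4 of 5 correlated best with their own number. The unilateral design lets libraries share a mouse, but which ones do is only hinted at by these data. With the replicate block limma called 778 genes higher and 900 lower. Of all 16932 genes, 382 higher and 567 lower passed adjustment under the block. An unadjusted limma *P*-value under 0.05 was reached by 3759 genes, against 1606 in the main fit. The members passing adjustment included *Hspa1l* (-2.34, adjusted *P*-value 0.0277) and *Hspa8* (0.54, adjusted *P*-value 0.0437). The second member called lower under the block was *Hspa1a* (-1.58, limma *P*-value 0.0443, adjusted 0.211), and *Hspa2* (-0.72), *Hspa5* (0.32) and *Hspa9* (0.30) had unadjusted limma *P*-values of 0.0178 to 0.0246. *Hspa1a*, *Hspa1b* and *Hspa1l* were each lower, and *Hspa5*, *Hspa8* and *Hspa9* each higher, in 5 of 5 same-numbered pairs. The share of all genes with the same direction in every pair was not counted.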

Other observations

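Markers of the other cells of the testis were found in both groups, and those of Sertoli cells reached the highest sums. The 8 Sertoli markers summed to 46.1 to 275 RPM in control and 43.1 to 264 RPM in cryptorchid libraries. Of the 8, 4 had log2 differences above 0 and 4 below, with a median of 0.07 and *Vim* called higher. Their sums ran from 43.1 to 84.4 RPM in replicates 1 to 3 and from 144 to 275 RPM in replicates 4 and above. The 5 Leydig markers summed to 8.84 to 16.0 and 5.53 to 48.1 RPM, with 0 called and 0 unadjusted limma *P*-values under 0.05. The 5 endothelial markers summed to 10.2 to 29.2 and 18.6 to 47.5 RPM, with *Cdh5* and *Vwf* called higher and all 5 log2 differences above 0. The 5 peritubular myoid markers summed to 1.95 to 16.6 and 1.04 to 14.7 RPM, with *Des* called higher and 3 of the 4 tested above 0. The 6 macrophage markers summed to 2.61 to 22.2 and 7.84 to 27.4 RPM (0 called, 0 unadjusted limma *P*-values under 0.05). The 7 lymphocyte markers summed to 9.66 to 24.7 and 11.97 to 72.7 RPM, with *Lck* called higher and 2 of the 3 tested above 0. The 5 markers of differentiating spermatogonia summed to 144 to 320 RPM and 190 to 367 RPM, with *Stra8* called higher. Log2 differences were above 0 for 2 of these 5 and below 0 for 3, with a median of -0.07. *Cryab*, a small heat shock gene that fell outside the rule for named genes and was chosen after its values were seen, had a log2 difference of -2.005 ± 0.957 (SE, limma *P*-value 0.0509, adjusted 0.531).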
